A study of Mus musculus with 6 samples.

Results

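The stefin A-like genes of mouse chromosome 16 were followed here through 7 members, Stfa2l1, Gm5483, Stfa1, BC117090, BC100530, Stfa2 and Stfa3, given in the order in which they lie on the chromosome. They were chosen by name, as the rows of the deposited table for these stefin genes, and all 7 were found among the 28987 genes of the table. The choice was made with earlier results of these data known, so counts over the members are descriptions. All 7 also reached at least 1 TPM (a measure of transcript abundance corrected for transcript length and library size) in at least 2 libraries. TPM is on a per-length scale, which lets levels be set beside each other between genes. For the stefin genes this is limited by shared reads and by transcripts of differing length.

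Gene expression had been measured by RNA sequencing in 6 libraries from bone marrow of C57BL/6 mice with mutant CBL and RUNX1. Mutant Ly6G+ myeloid cells of mice given Mdivi-1 made up 2 libraries, and mutant Ly6G+ cells of mice given vehicle made up 2 more. Hematopoietic stem and progenitor cells (HSCPs) of the mutant clone gave 1 library with Mdivi-1 and 1 with vehicle. Mutant cells were sorted in every group, so all 4 groups carry the mutations and no wild-type group was analysed here. Mdivi-1 is a compound reported to inhibit Drp1, the GTPase that divides mitochondria. HSCPs had been enriched through CD117, the receptor encoded by Kit, and both the HSCPs of the mutant clone and the Ly6G+ cells were then isolated by flow cytometry. Dose, duration, age, sex and the way the mutations were introduced are not stated in the labels. The labels speak of marrow from individual mice without tying a library to a mouse. P-values therefore measure the spread between these libraries, which may be technical.

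Stefins are small cytosolic inhibitors of the cystatin superfamily that block papain-like cysteine proteases such as the cathepsins B, H, L and S. Humans have a single stefin A gene, CSTA, whereas the mouse carries a tandem array of stefin A-like genes. In the mouse these genes are known for their expression in cells of the neutrophil lineage and in skin. The roles of the single members in marrow are not well separated, and for BC117090, BC100530 and Gm5483 nothing more specific than membership of the family is stated here.

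In the mm10 assembly, with the GENCODE M21 annotation, the 7 genes span 298582 bases, chr16:36156811-36455392. Stfa2l1 (ENSMUSG00000059657, chr16:36156811-36161953), Gm5483 (ENSMUSG00000079597, chr16:36184212-36188111) and Stfa1 (chr16:36276951-36285373) lie on the plus strand. BC117090 (chr16:36321665-36334332), BC100530 (chr16:36359382-36367748), Stfa2 (chr16:36403992-36408457) and Stfa3 (chr16:36450537-36455392) lie on the minus strand. The transcript used for each gene had 3 exons. Without the stop codon, the coding sequence was 309 bases long in Stfa2l1, Stfa2 and Stfa3, 291 bases in Gm5483, Stfa1 and BC100530, and 288 bases in BC117090.

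The starts of the coding sequences show how alike the members are, which bears on how far their values can be told apart. They are read from the M21 transcripts, 5′ to 3′ from the start codon, and capitals mark bases that differ from Stfa2l1. The lines of Gm5483, Stfa1 and BC100530 lack 18 bases of the Stfa2l1 stretch, and that of BC117090 lacks 21.
Stfa2l1: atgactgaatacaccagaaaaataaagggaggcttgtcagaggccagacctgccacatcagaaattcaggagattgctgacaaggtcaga
Gm5483: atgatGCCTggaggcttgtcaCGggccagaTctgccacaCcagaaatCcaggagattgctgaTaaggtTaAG
Stfa1: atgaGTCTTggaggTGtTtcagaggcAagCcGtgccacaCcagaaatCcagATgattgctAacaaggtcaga
BC117090: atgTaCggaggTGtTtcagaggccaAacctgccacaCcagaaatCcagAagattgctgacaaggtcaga
BC100530: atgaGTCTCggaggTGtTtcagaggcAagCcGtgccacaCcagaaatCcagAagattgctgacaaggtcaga
Stfa2: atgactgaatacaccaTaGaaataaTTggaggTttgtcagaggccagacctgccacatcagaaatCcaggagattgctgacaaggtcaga
Stfa3: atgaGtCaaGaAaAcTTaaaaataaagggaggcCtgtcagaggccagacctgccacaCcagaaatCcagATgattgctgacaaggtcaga

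Over the whole coding sequence the members fell into subfamilies. Stfa2l1 and Stfa2 were identical at 96.4% of aligned bases. Stfa1 was identical with BC100530 at 97.9% and with BC117090 at 94.4%, and BC117090 with BC100530 at 96.2%. Every other pair, including all pairs with Gm5483 or Stfa3, was between 77.3% and 83.7% identical. Below, Stfa2l1 and Stfa2 are called the Stfa2-like pair, and Stfa1, BC100530 and BC117090 the Stfa1-like trio.

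Such identity limits the values, because reads that match several members have to be divided among them. Stretches of 31 bases (31-mers) of the M21 transcripts were used to measure this. Stfa3 shared 0 of its 382 31-mers with any other gene. In Gm5483, 99.3% of the 31-mers were in no other member, although only 78.4% were in no other gene at all. This share includes a second transcript of 1859 bases, against 414 bases for the shorter one. In the Stfa2-like pair, 29.3% of the 31-mers of Stfa2l1 were also in Stfa2. The trio shared most, with 39.0% of the 31-mers of Stfa1 also in BC100530 and 42.0% of those of BC117090 also in BC100530. The values of Stfa3 are thus the ones least affected by sharing, and the split within the trio is the least certain.

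**Figure D1:**
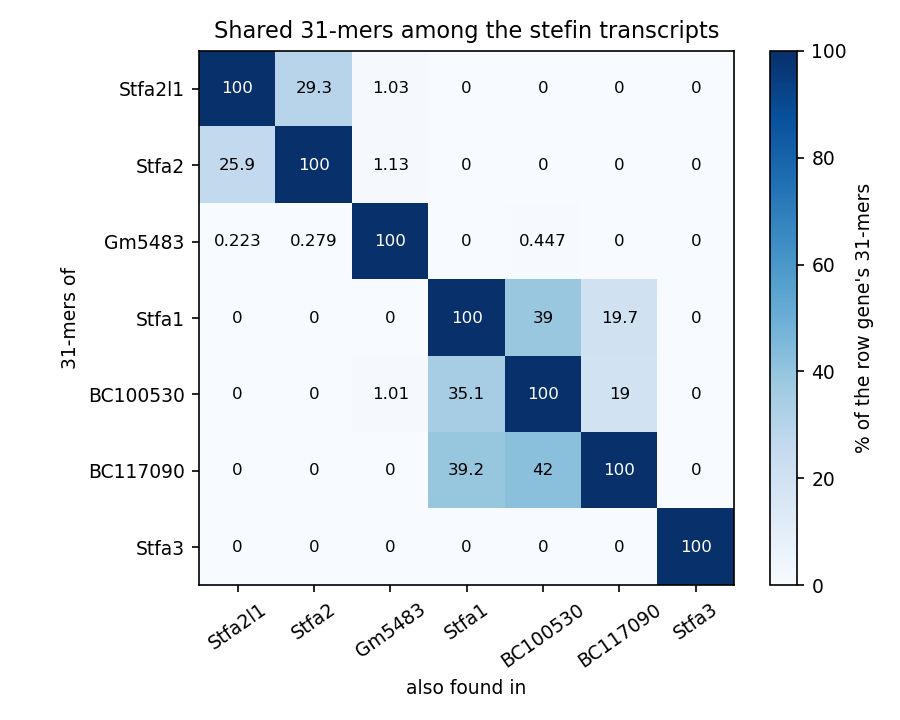
Percentage of the 31-mers of each row gene that are also found in each column gene, from the M21 transcripts of the 7 stefin genes. Sharing was largest inside the Stfa1-like trio (19 to 42%) and in the Stfa2-like pair (25.9 and 29.3%), and Stfa3 shared 0% with any other member.

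Promoters, here the 250 bases before and 50 bases after a RefSeq transcription start (GRCm38.p6), were matched for 6 of the 7 members; BC117090 had no entry. One of each subfamily is printed, 5′ to 3′ on the gene's own strand, since the members moved together in the results that follow. Capitals mark GAGGAA, a form of the binding motif of ETS factors such as PU.1, and TTNNGNAA, a relaxed C/EBP motif, on either strand.
Stfa2l1, chr16:36156561-36156860, plus strand: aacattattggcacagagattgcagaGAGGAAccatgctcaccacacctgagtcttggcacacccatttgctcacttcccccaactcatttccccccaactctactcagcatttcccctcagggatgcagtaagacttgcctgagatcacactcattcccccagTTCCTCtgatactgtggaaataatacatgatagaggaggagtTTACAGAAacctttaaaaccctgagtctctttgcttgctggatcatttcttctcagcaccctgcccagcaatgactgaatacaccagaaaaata
Gm5483, chr16:36183962-36184261, plus strand: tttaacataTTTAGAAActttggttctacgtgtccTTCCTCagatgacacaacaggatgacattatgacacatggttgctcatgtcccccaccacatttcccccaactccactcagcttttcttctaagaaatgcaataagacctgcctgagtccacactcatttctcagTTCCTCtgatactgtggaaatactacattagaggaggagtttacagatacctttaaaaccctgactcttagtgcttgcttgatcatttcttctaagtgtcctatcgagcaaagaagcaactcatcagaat
Stfa1, chr16:36276898-36277197, plus strand: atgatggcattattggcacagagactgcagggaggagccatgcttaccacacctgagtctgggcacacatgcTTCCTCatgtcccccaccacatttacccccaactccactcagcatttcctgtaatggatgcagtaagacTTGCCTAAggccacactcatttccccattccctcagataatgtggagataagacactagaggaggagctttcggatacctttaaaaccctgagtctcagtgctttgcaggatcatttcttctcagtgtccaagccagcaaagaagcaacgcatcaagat
Stfa3, chr16:36455343-36455642, minus strand: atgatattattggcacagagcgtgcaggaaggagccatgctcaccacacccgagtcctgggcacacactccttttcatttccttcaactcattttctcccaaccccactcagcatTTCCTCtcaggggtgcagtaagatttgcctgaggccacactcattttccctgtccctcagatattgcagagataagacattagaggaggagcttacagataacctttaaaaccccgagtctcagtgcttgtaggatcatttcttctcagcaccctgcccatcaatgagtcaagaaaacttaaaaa

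GAGGAA was in all 6 promoters, and in 28.3% of the 32851 mouse promoters of the table. TTNNGNAA was in 5 of the 6, all but that of Stfa3, and in 40.7% of all promoters. TATAAA, a form of the TATA box motif, was in 0 of the 6 and in 13.6% of all. A doubled ETS core motif was in 0 of the 6 and in 3.47% of all. Both strands were searched for each, and only for the given form, so other variants of these motifs were not counted. The longest run that all 6 promoters share was acctttaaaaccc, which overlaps none of the capitals in the printed lines. Its first base lay 36 bases before the start in Stfa2l1, at -32 in Gm5483 and Stfa2, at -33 in Stfa1, at -34 in Stfa3 and at -12 in BC100530. Searched on both strands, it was found in 9 of the 32851 promoters (0.0274%), those of the 6 members and of Csta3, Cstdc3 and Gm7260, all on chromosome 16. Promoter identity followed the subfamilies, at 96.1% between Stfa1 and BC100530, 92.9% between Stfa2l1 and Stfa2, and 68.7 to 84.8% in the other pairs. These are matches of letters, and binding was not measured.

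The labelled cell types were checked against their defining genes. Kit was at 9.53 and 8.73 TPM in Ly6G+ Mdivi-1 libraries and 10.4 and 14.1 TPM in Ly6G+ vehicle libraries, against 64.9 TPM in HSCP Mdivi-1 and 72.2 TPM in HSCP vehicle. Ly6g was at 791 and 642 TPM in Ly6G+ Mdivi-1 and 814 and 840 TPM in Ly6G+ vehicle, against 90.2 TPM in HSCP Mdivi-1 and 187 TPM in HSCP vehicle. Both genes thus followed their labels, but Ly6g and other neutrophil genes were present in the HSCP libraries as well. The 12 neutrophil markers summed to 270471 to 281890 TPM in the Ly6G+ libraries, against 92241 TPM in HSCP Mdivi-1 and 100920 TPM in HSCP vehicle. In bulk libraries such as these, fewer cells of a type and less RNA per cell cannot be told apart. Dnm1l, which encodes Drp1, was between 23.0 and 24.6 TPM in all 4 Ly6G+ libraries, and its log2 change with Mdivi-1 was 0.0 (limma adjusted p = 0.975). The libraries summed to 963243 to 979168 TPM, and TPM keeps no read totals, so the depth behind each value is unknown.

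Mdivi-1 was first set against vehicle within the Ly6G+ cells. All 7 stefin genes rose, by 0.98 to 1.35 on the log2 scale, and in each of them both Mdivi-1 libraries were above both vehicle libraries. With 2 libraries per arm, a gene can be separated in this way by chance. How many of all genes were so separated was not counted, and the separation is a description only. The summed TPM of the stefin genes was 16449 and 16782 in Ly6G+ Mdivi-1, against 7804 and 7050 in Ly6G+ vehicle. The means were 16615 ± 236 TPM with Mdivi-1 and 7427 ± 533 TPM with vehicle (SD, n = 2 each), a 2.24-fold difference. The stefin genes took up 1.68% and 1.71% of all TPM in the Mdivi-1 libraries, against 0.797% and 0.721% in the vehicle libraries. The sum is a total over chosen genes and was given no test of its own. Because reads shared between members stay within it, it depends less on how they were divided than any single value does. Reads may still be shared with genes outside it. Of 10 other stefin A-like genes listed, 2 were found by name in the deposited table. In Stfa2l1, 12.9% of the 31-mers were also in Gm49652, and in Gm5483, 9.72% were also in 2010005H15Rik. Neither of these genes was found by name there.

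**Figure D2:**
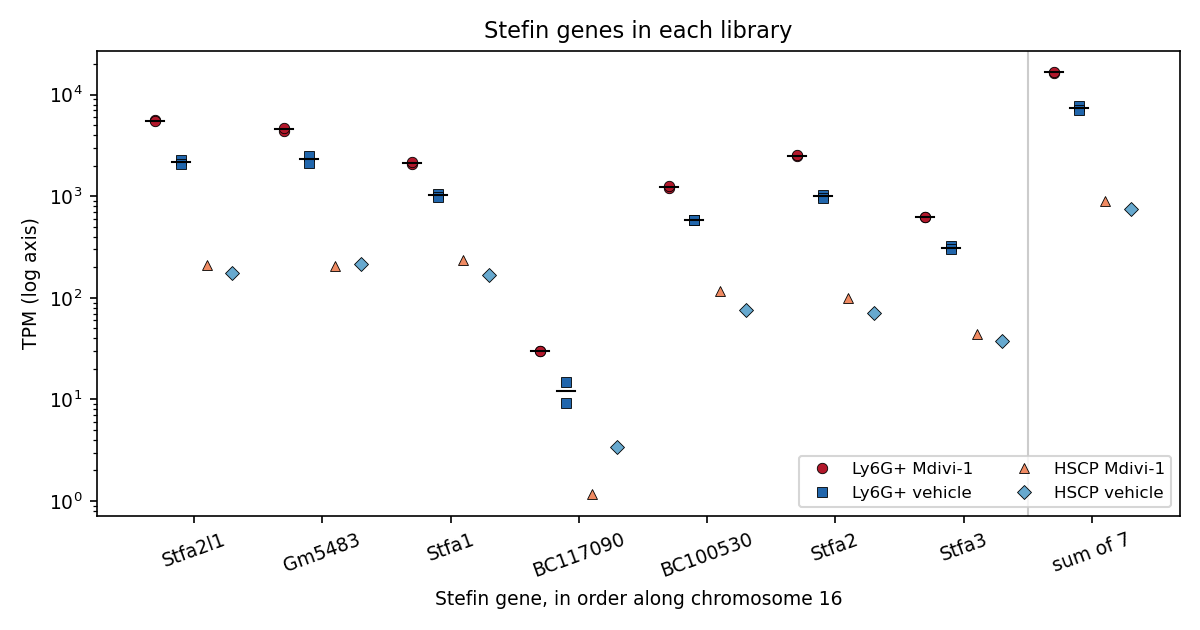
TPM (log axis) of each stefin gene in order along chromosome 16, and of their sum, in Ly6G+ Mdivi-1, Ly6G+ vehicle, HSCP Mdivi-1 and HSCP vehicle libraries; points are libraries and short lines the means of 2 Ly6G+ libraries. In each gene both Ly6G+ Mdivi-1 libraries lie above both Ly6G+ vehicle libraries, and both HSCP libraries lie below all 4. The share of all genes that do so was not counted, so this is a description only.

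The Stfa2-like pair was 2.53-fold higher in its summed TPM. Stfa2l1 was at 5585 and 5452 TPM in Ly6G+ Mdivi-1, against 2277 and 2069 TPM in Ly6G+ vehicle. The groups were far apart, and Stfa2l1 stood 11th by TPM among all genes in both Mdivi-1 libraries, against 30th and 33rd in the vehicle libraries. Its log2 change was 1.35 ± 0.06 (SE; 95% interval 1.19 to 1.5), with a limma adjusted p of 0.00267. Stfa2 was at 2468 and 2547 TPM in Ly6G+ Mdivi-1, against 1039 and 971 TPM in Ly6G+ vehicle. Again the groups did not overlap, and the log2 change was 1.32 ± 0.05 (SE; adjusted p = 0.00219). The ratio of Stfa2l1 to Stfa2 was 2.26 and 2.14 in the Mdivi-1 libraries and 2.19 and 2.13 in the vehicle libraries, and the arms overlapped.

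The Stfa1-like trio was 2.10-fold higher in its summed TPM. Stfa1 was at 2093 and 2186 TPM in Ly6G+ Mdivi-1, against 1052 and 987 TPM in Ly6G+ vehicle, a log2 change of 1.07 ± 0.05 (SE; adjusted p = 0.00368). BC100530 was at 1202 and 1266 TPM in Ly6G+ Mdivi-1, against 590 and 588 TPM in Ly6G+ vehicle, a log2 change of 1.07 ± 0.05 (SE; adjusted p = 0.00303). In both genes the libraries of an arm lay close together and the arms did not overlap. BC117090 was the lowest member by far, at 30.0 and 29.8 TPM in Ly6G+ Mdivi-1, against 14.9 and 9.19 TPM in Ly6G+ vehicle. Its vehicle libraries differed more from each other than those of the other members, and its log2 change of 1.28 had the widest error (SE 0.214, 95% interval 0.73 to 1.83, adjusted p = 0.0383). With 39.2% of its 31-mers also in Stfa1 and 42.0% also in BC100530, its reads are a small share beside 2 abundant relatives.

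Gm5483 and Stfa3, the members most distinct in sequence, rose too. Gm5483 was at 4444 and 4678 TPM in Ly6G+ Mdivi-1, against 2509 and 2124 TPM in Ly6G+ vehicle, a log2 change of 0.98 ± 0.09 (SE; adjusted p = 0.00935). Stfa3 was at 627 and 624 TPM in Ly6G+ Mdivi-1, against 322 and 302 TPM in Ly6G+ vehicle. It was 2.0-fold higher, with a log2 change of 1.0 ± 0.05 (SE; 95% interval 0.87 to 1.14, adjusted p = 0.00395). Stfa3 shares no 31-mer with another gene, and of the other members only Gm5483 had a smaller change. The interval of Stfa3 lay below those of Stfa2l1 (1.19 to 1.5) and Stfa2 (1.18 to 1.46). The part of read sharing in these changes was not tested.

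All 7 of 7 members were thus called higher, where 2.46% of the 11775 genes tested were called higher (290 genes) and 4.24% lower (499 genes). Changes of at least 0.95 on the log2 scale, a bound set just below the lowest member after its value was seen, passed the test in 80 genes (0.679%). The median log2 change was 1.07 over the members and -0.05 over all genes tested, and the members stood between 48th and 119th of 11775 by log2 change. Some calls ended when a library was left out, which leaves 1 library in an arm and lowered the number of genes called in all. Without Ly6G+ vehicle replicate 2, where 22 genes in all were called, the log2 changes of Stfa1 (1.02), Stfa3 (0.96), BC100530 (1.06), Gm5483 (0.86) and BC117090 (0.96) had adjusted p-values of 0.0536 to 0.0704, and those of Stfa2l1 and Stfa2 stayed called at 0.0425. The call of BC117090 also ended without either Mdivi-1 library (adjusted p = 0.124 and 0.152) and with no filter on low values (0.104).

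**Figure D3:**
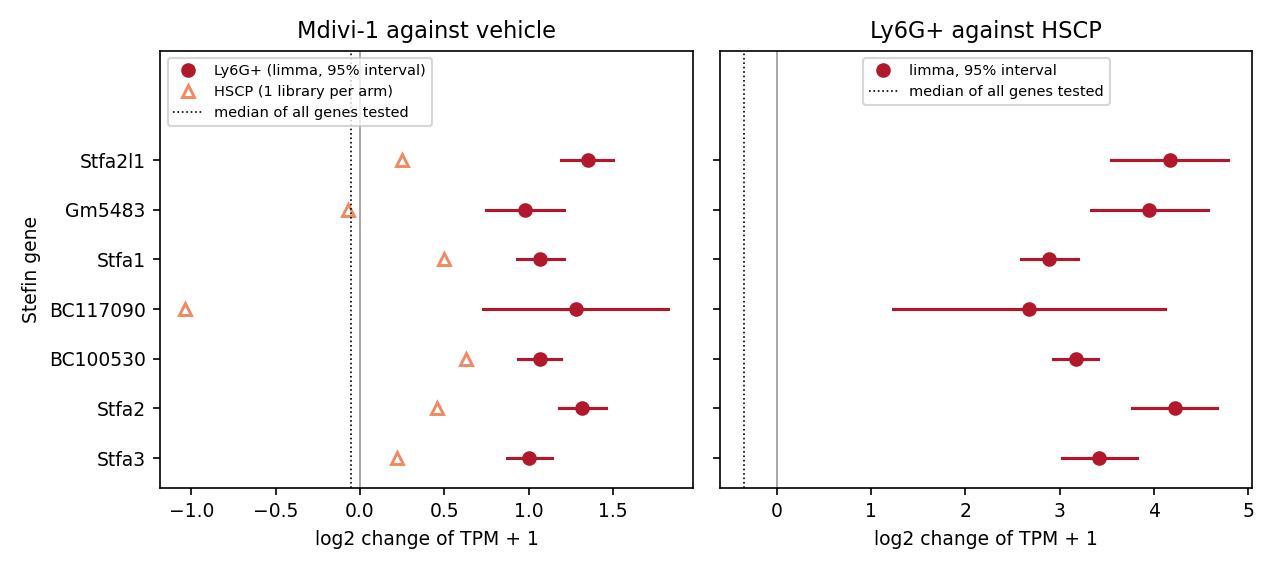
Log2 change of TPM + 1 of each stefin gene with Mdivi-1 (left; points with 95% intervals are the Ly6G+ fit, open triangles the ratio of the single HSCP libraries) and between Ly6G+ and HSCP (right); dotted lines are the medians of all genes tested. With Mdivi-1 the Ly6G+ changes lie between 0.98 and 1.35 and the HSCP ratios between -1.04 and 0.63; between populations the changes lie between 2.68 and 4.22.

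The make-up of the stefin signal differed between the arms by a few percentage points. Stfa2l1 made up 34.0% and 32.5% of the summed TPM in Ly6G+ Mdivi-1, against 29.2% and 29.4% in Ly6G+ vehicle. Gm5483 made up 27.0% and 27.9% with Mdivi-1, against 32.2% and 30.1% with vehicle. The ratio of Stfa2l1 to Gm5483 was therefore 1.26 and 1.17 in Mdivi-1 libraries and 0.908 and 0.975 in vehicle libraries, without overlap. With Mdivi-1 the order of levels was Stfa2l1, Gm5483, Stfa2, Stfa1, BC100530, Stfa3 and BC117090, and the replicates of neighbours in this order did not overlap. With vehicle, Stfa2l1 and Gm5483 overlapped, as did Stfa1 and Stfa2, and the other neighbours did not. These shares are descriptions, and the genes share reads.

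**Figure D4:**
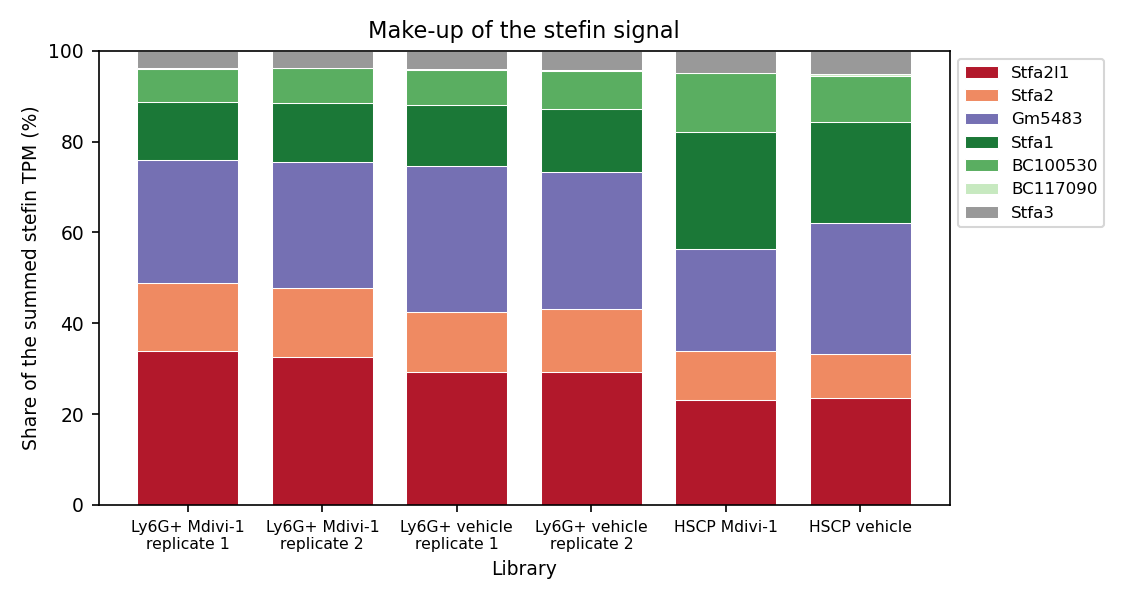
Share of the summed stefin TPM (%, stacked from 0 to 100) that each of the 7 genes takes up in each library, with Mdivi-1 to the left of vehicle within each population. The Stfa2-like pair takes up 47.7 to 49.0% in Ly6G+ Mdivi-1, 42.5 to 43.1% in Ly6G+ vehicle, 33.9% in HSCP Mdivi-1 and 33.2% in HSCP vehicle.

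Markers of other cells moved with the same comparison. The 10 B cell markers summed to 23.6 and 24.5 TPM in Ly6G+ Mdivi-1, against 146 and 148 TPM in Ly6G+ vehicle, with 9 of 10 called lower. The 8 megakaryocyte markers summed to 119 and 103 TPM with Mdivi-1, against 264 and 261 TPM with vehicle (7 of 8 lower). The 6 mast cell and basophil markers summed to 166 and 176 TPM with Mdivi-1, against 494 and 499 TPM with vehicle (6 of 6 lower). The 10 stem and progenitor markers summed to 78.9 and 77.9 TPM with Mdivi-1, against 112 and 117 TPM with vehicle (4 of 10 lower). A sum over a few markers does not measure the share of such cells in a library. In these 4 lists 0 markers were at 0 in every library, and the part of these shifts in the stefin result was not tested. The 9 erythroid markers summed to 2503 and 2539 TPM with Mdivi-1, against 3186 and 3277 TPM with vehicle, with 4 lower and 0 higher. With median-of-ratios scaling 5 of the mast cell and basophil markers, 6 of the megakaryocyte markers and 3 each of the stem and erythroid markers were lower. With upper-quartile scaling these counts were 5, 7, 3 and 4, and those of the B cell markers stayed at 9 under both. Of the 6 promyelocyte markers 1 was lower and 0 higher. Of the 8 monocyte and macrophage markers 1 was higher and 1 lower, of 6 T and NK cell markers tested 1 was higher and 0 lower, and of 5 eosinophil markers tested 0 were called in limma (0 at an unadjusted p under 0.05).

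The neutrophil markers did not move as one. Of the 12, 4 were called lower with Mdivi-1 and 3 higher, and all 7 are named here after their values were seen. The lower ones were the secondary granule genes Camp, which encodes cathelicidin (-0.65, adjusted p = 0.0134), Ngp (-0.52, adjusted p = 0.0232) and Ltf, which encodes lactoferrin (-0.50, adjusted p = 0.0088), and the surface protein gene Cd177 (-0.26). The higher ones were the chemokine receptor gene Cxcr2 (0.76), Retnlg (0.51) and the collagenase gene Mmp8 (0.30). The part of these shifts in the stefin result was not tested. The marker sum with Mdivi-1 was 0.993 times that with vehicle, but it is carried by the calprotectin genes, and says little of the other markers. S100a8 was at 112408 ± 5341 TPM with Mdivi-1 and 110713 ± 10819 TPM with vehicle, and S100a9 at 86754 ± 2985 TPM with Mdivi-1 and 88050 ± 2126 TPM with vehicle (SD, n = 2 each). The summed stefin TPM was 0.0608 and 0.0597 of the neutrophil marker sum in Ly6G+ Mdivi-1, against 0.0277 and 0.0258 in Ly6G+ vehicle. Against Ly6g itself, the ratio of the stefin sum was 20.8 and 26.2 with Mdivi-1 and 9.58 and 8.40 with vehicle. The 7 keratinocyte markers, listed because stefins are also made in skin, together reached at most 0.371 TPM in any library. Krt5, Krt14, Krt1, Trp63 and Lor, named after their values were seen, were listed at 0 in all 6.

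A list of 20 genes of late neutrophil maturation, among them chemokine receptors, gelatinase granule genes and surface receptors, was set beside the stefins. Of these, 13 were called higher with Mdivi-1 in Ly6G+ cells, 2 lower and 5 not called, with a median log2 change of 0.44. The largest change was that of the decoy interleukin-1 receptor Il1r2, at 2.53 (adjusted p = 0.000734), followed by the lectin receptor Clec4e at 1.23, Il1b, which encodes interleukin-1 beta, at 1.21, and the lectin receptor Clec4d at 1.16. The 2 called lower were Padi4, whose enzyme citrullinates histones, at -0.53, and the surface protein Cd177 at -0.26, named here after their values were seen. The call of Cd177 ended under both other scalings of the libraries. Of the 20, 5 also stand among the 12 neutrophil markers. The stefin median of 1.07 was above the median of this list.

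In HSCPs there was 1 library per arm, so values are given without a test. The summed stefin TPM was 909 in HSCP Mdivi-1, against 743 in HSCP vehicle, a ratio of 1.22. Stfa1 was at 235 TPM in HSCP Mdivi-1 and 166 TPM in HSCP vehicle, and BC100530 at 117 TPM in HSCP Mdivi-1 and 75.2 TPM in HSCP vehicle. Stfa2 was at 99.0 TPM with Mdivi-1 and 71.5 TPM with vehicle, Stfa2l1 at 209 TPM with Mdivi-1 and 176 TPM with vehicle, and Stfa3 at 43.6 TPM with Mdivi-1 and 37.3 TPM with vehicle. These 5 genes were higher in the Mdivi-1 library, with log2 ratios between 0.22 (Stfa3) and 0.63 (BC100530). Gm5483, at 204 TPM with Mdivi-1 and 214 TPM with vehicle, and BC117090, at 1.16 TPM with Mdivi-1 and 3.44 TPM with vehicle, were lower in it, with log2 ratios of -0.07 and -1.04. By the rule of a 2-fold difference at a mean of at least 10 TPM, 0 of 7 members were past it in either direction, where 31 of 7987 genes (0.388%) were past it upwards and 43 (0.538%) downwards. BC117090, with a mean of 2.30 TPM, lay below the minimum level of that rule. The neutrophil marker sum was 0.914 times as high in HSCP Mdivi-1 as in HSCP vehicle, and Ly6g was at 90.2 TPM in HSCP Mdivi-1, against 187 TPM in HSCP vehicle. The ratio of the stefin sum to Ly6g was therefore 10.1 in HSCP Mdivi-1, against 3.98 in HSCP vehicle. The ratio to the neutrophil marker sum was 0.00985 in HSCP Mdivi-1, against 0.00736 in HSCP vehicle. Megakaryocyte markers summed to 162 TPM in HSCP Mdivi-1, against 328 TPM in HSCP vehicle, and eosinophil markers to 380 TPM in HSCP Mdivi-1, against 679 TPM in HSCP vehicle. Their part in the stefin ratios was not tested.

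Whether the effect of Mdivi-1 differs between the populations was asked with an interaction term, with no replicate in either HSCP arm. The spread came from the Ly6G+ pairs alone, and the p-values hold only if the lone HSCP libraries vary like them, which these data cannot show. In these libraries the log2 change in Ly6G+ was above the ratio in HSCP in all 7 members, by 1.09 in Stfa2l1, 1.05 in Gm5483, 0.85 in Stfa2, 0.78 in Stfa3, 0.57 in Stfa1 and 0.44 in BC100530. For BC117090 the difference was 2.32, and its HSCP levels were the lowest of all members. The median difference was 0.85 over the members and -0.08 over all genes tested. After adjustment over 12338 genes, 0 members and 0 genes in all passed in limma (0.0%), with adjusted p-values of 0.106 to 0.249 in the members. At an unadjusted p under 0.05 there were 1398 genes (11.3%). The members were among them, with unadjusted limma p-values of 0.000194 to 0.00489. Whether the stefin genes respond differently in the 2 populations is thus not shown.

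Ly6G+ cells were next set against HSCPs over all 6 libraries, with treatment in the fit. All 7 stefin genes were higher in Ly6G+ cells, and in each the 4 Ly6G+ libraries were above both HSCP libraries. The share of all genes separated in this way was not counted, so this is a description only. Of the 12338 genes tested, limma called 22.2% higher in Ly6G+ and 50.3% lower, which is another measure than separation of the libraries. The summed stefin TPM averaged 12021 ± 5316 in Ly6G+ cells (SD, n = 4, with both treatments). In HSCPs it averaged 826 ± 117 (SD, n = 2), a 14.6-fold difference. Within vehicle libraries the Ly6G+ sum was 9.99 times the HSCP sum, and within Mdivi-1 libraries 18.3 times. This comparison uses the same Ly6G+ libraries as the treatment comparison and is not independent of it. The stefin genes took up 0.0940% of all TPM in HSCP Mdivi-1, where Stfa2l1 stood 594th by TPM, and 0.0772% in HSCP vehicle, where it stood 692nd.

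The Stfa2-like pair differed most, at 20.2-fold in its sum. Stfa2 had a log2 difference of 4.22 (95% interval 3.77 to 4.67, limma adjusted p = 1.44e-05) and Stfa2l1 one of 4.17 (3.54 to 4.79, adjusted p = 6.49e-05). Gm5483 followed at 3.95 (3.33 to 4.57, adjusted p = 7.43e-05) and Stfa3 at 3.42 (3.02 to 3.82, adjusted p = 1.55e-05). The Stfa1-like trio differed least, at 8.40-fold in its sum, although far above 0 in each gene. BC100530 had a log2 difference of 3.17 (2.93 to 3.41, adjusted p = 6.92e-06), Stfa1 one of 2.89 (2.59 to 3.20, adjusted p = 1.13e-05) and BC117090 one of 2.68 (1.23 to 4.12, adjusted p = 0.00887). The value of BC117090 rested on single HSCP libraries, being 1.52 without HSCP Mdivi-1 and 3.84 without HSCP vehicle, and was called in both cases.

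The populations differed widely: 22.2% of the 12338 genes tested were called higher in Ly6G+ (2736 genes) and 50.3% lower (6202 genes), so a call as such says little here. Differences of at least 2.5 on the log2 scale, a bound likewise set below the lowest member, passed the test in 97 genes (0.786%). The members stood between 8th and 81st of 12338 by log2 difference. Their median was 3.42, against -0.35 over all genes tested, so that they lay 3.77 above the middle of the table. The median of all genes moved to -0.01 and -0.07 under the other scalings, with 4157 and 3921 genes called higher and 4196 and 4518 lower, and the 7 members were called higher under both. The neutrophil markers were higher in Ly6G+ in 12 of 12 genes and the late neutrophil genes in 19 of 20, the 1 not called being Clec4e. The promyelocyte markers, such as Mpo and Elane, summed to 2110 to 2200 TPM in the Ly6G+ libraries, against 15858 TPM in HSCP Mdivi-1 and 14738 TPM in HSCP vehicle, with 5 of 6 lower in Ly6G+.

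The composition of the stefin signal also differed between populations. Stfa1 made up 12.7 to 14.0% of the sum in the 4 Ly6G+ libraries, against 25.9% in HSCP Mdivi-1 and 22.4% in HSCP vehicle. BC100530 made up 7.31 to 8.34% in Ly6G+, against 12.9% in HSCP Mdivi-1 and 10.1% in HSCP vehicle. The pattern in Stfa2l1 was the opposite one, at 29.2 to 34.0% in Ly6G+ against 23.0% in HSCP Mdivi-1 and 23.6% in HSCP vehicle. The ratio of Stfa2l1 to Stfa1 was accordingly 2.10 to 2.67 in Ly6G+ libraries against 0.891 in HSCP Mdivi-1 and 1.06 in HSCP vehicle. In HSCPs the levels of Stfa1, Stfa2l1 and Gm5483 could not be ordered, since their order changed between the 2 libraries. BC100530 was above Stfa2 in both HSCP libraries, and Stfa3 and BC117090 were below them.

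The genes beside the cluster were examined to see how far the pattern extends. Of the 5 nearest protein-coding genes on either side, 6 were high enough to be tested. With Mdivi-1 in Ly6G+ cells, 0 of the 6 were called in limma (3 at an unadjusted p under 0.05), with a median log2 change of 0.20. Their values were -0.30 in Wdr5b (adjusted p = 0.231), 0.08 in the importin gene Kpna1 (0.529), 0.09 in Ccdc58 (0.696), 0.31 in Fam162a (0.101) and 0.77 in the peptide transporter gene Slc15a2 (0.183). Cd86, a costimulatory ligand for T cells, was closest to the threshold, at 0.35 (adjusted p = 0.0521), and was called higher under both other scalings (0.0387 and 0.0457). Between populations, Cd86 was higher in Ly6G+ by 2.12 (adjusted p = 0.000733), Ccdc58 lower by 1.11 (log2 difference -1.11, adjusted p = 0.000298), and the other 4 were not called. With median-of-ratios scaling 3 of the 6 were called higher there. Of the 4 genes too low to test, the stefin relative Csta1 reached at most 0.0704 TPM and Casr was listed at 0 in all 6 libraries, while Ildr1 and Eaf2 stayed under 1 TPM. Csta1, the nearest protein-coding gene outside the cluster on the side of Stfa2l1, thus had no level at which a change could be seen.

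**Figure D5:**
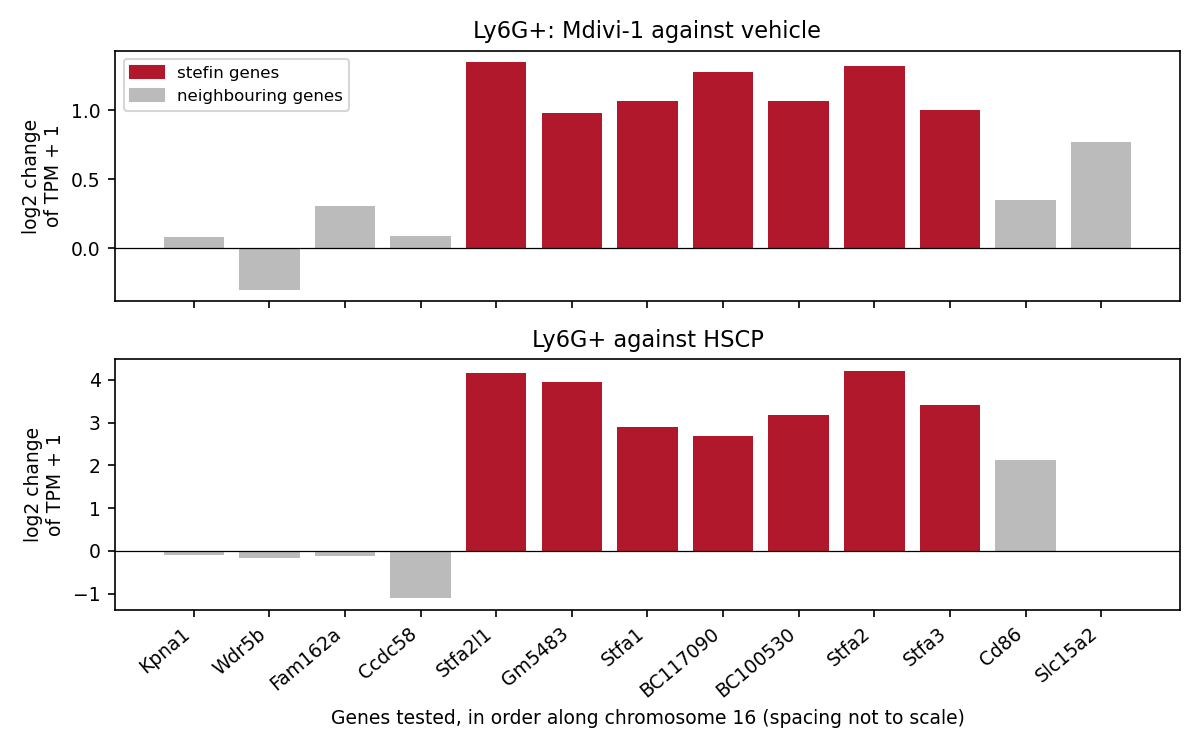
Log2 change of TPM + 1 of the 7 stefin genes (red) and the 6 tested neighbours (grey) in order along chromosome 16, with Mdivi-1 in Ly6G+ cells (top) and between Ly6G+ and HSCP (bottom). The stefin genes lie between 0.98 and 1.35 (top) and 2.68 and 4.22 (bottom), and the neighbours between -0.30 and 0.77 (top) and -1.11 and 2.12 (bottom).

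Inside the cluster lies Gm15845, an antisense gene that overlaps BC100530 and holds 117 of its 31-mers; it was named after its values were seen. It was at 31.1 and 31.6 TPM in Ly6G+ Mdivi-1, against 14.4 and 15.7 TPM in Ly6G+ vehicle (log2 change 1.01, adjusted p = 0.00639), and at 1.8 TPM in HSCP Mdivi-1 and 1.72 TPM in HSCP vehicle. Whether the reads were counted by strand is not stated, so its values and those of BC100530 cannot be told apart with confidence.

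The other inhibitors and the target proteases did not move as a group with the stefins in Ly6G+ cells given Mdivi-1. Of 14 other cystatins 3 were high enough to test, and 0 were called in limma (1 at an unadjusted p under 0.05). Cstb, which encodes stefin B, the cytosolic relative of the stefin A proteins, was at 106 ± 1.30 TPM with Mdivi-1 and 104 ± 4.52 TPM with vehicle (SD, n = 2 each; log2 change 0.03, adjusted p = 0.766). Cst3, which encodes the secreted cystatin C, changed by -0.18 (adjusted p = 0.110), and Cst7, which encodes the endolysosomal inhibitor cystatin F, by 0.09 (adjusted p = 0.533). Between populations, Cstb was higher in Ly6G+ by 0.33 (adjusted p = 0.00206) and Cst7 lower, with a log2 difference of -2.72 (adjusted p = 6.92e-06). Cst3 differed by -0.19 on the deposited values, and by 0.19 with median-of-ratios scaling, so its direction depends on the scaling.

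A list of 11 lysosomal cysteine protease genes held 10 cathepsins and Lgmn, which encodes legumain, a protease of another family. Of the 9 tested for Mdivi-1 in Ly6G+ cells, 8 cathepsins and Lgmn, 1 was called higher, 1 lower and 7 not, Lgmn among the last (0.20, adjusted p = 0.284). Ctsl, which encodes the endopeptidase cathepsin L, rose to 19.0 ± 1.78 TPM with Mdivi-1, against 10.2 ± 0.288 TPM with vehicle (SD, n = 2 each; log2 change 0.83, adjusted p = 0.0178). Ctsh, which encodes the aminopeptidase cathepsin H, fell to 177 ± 0.531 TPM with Mdivi-1, against 254 ± 2.56 TPM with vehicle (SD, n = 2 each; log2 change -0.52, adjusted p = 0.00979). The most abundant, Ctss, was at 509 ± 16.3 TPM with Mdivi-1 and 475 ± 7.10 TPM with vehicle and was not called (0.10, adjusted p = 0.293), nor were Ctsb at -0.14 (adjusted p = 0.18) and Ctsz at 0.05 (adjusted p = 0.615). Between populations, Ctss (0.79), Ctsh (0.70) and Ctsc (0.42) were higher in Ly6G+ and Ctsz (-0.71) was lower. That split of 3 higher and 1 lower was 7 and 1 with median-of-ratios and 6 and 1 with upper-quartile scaling.

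Of 14 other leukocyte protease inhibitors 12 were tested for Mdivi-1 in Ly6G+ cells, with 1 called higher, 1 lower and 10 not. Wfdc17, a WAP-domain gene of myeloid cells, rose to 346 ± 32.1 TPM with Mdivi-1, against 118 ± 13.4 TPM with vehicle (SD, n = 2 each; log2 change 1.55, adjusted p = 0.00544). The serpin gene Serpina3g fell, with a log2 change of -0.65 (adjusted p = 0.018). Abundant inhibitors such as Wfdc21, at 4806 ± 81.6 TPM with Mdivi-1 and 4771 ± 165 TPM with vehicle, and Serpinb1a, at 200 TPM in both arms, were not called (0.01 and 0.00). The elastase inhibitor gene Slpi was not called either, at 610 ± 112 TPM with Mdivi-1 and 683 ± 11.2 TPM with vehicle (-0.18, adjusted p = 0.442). Between populations, 5 of the 12 were higher in Ly6G+ and 5 lower on the deposited values, 6 and 3 with median-of-ratios scaling and 6 and 4 with upper-quartile scaling. Wfdc17 (2.32), Timp2 (1.97), Serpinb2 (1.89) and Wfdc21 (1.77) were among the higher ones and Serpina3g (-2.04) among the lower ones.

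Finally, the genes whose pattern over the 6 libraries was most like that of the summed stefin TPM were listed. Likeness was the root mean square difference between log2(TPM + 1) profiles, each centred on its mean, among 7682 genes with a mean of at least 10 TPM; smaller is more alike. Asprv1, which encodes a retroviral-like aspartic protease, was nearest at 0.162, followed by Il1b at 0.168. Asprv1 was at 288 and 269 TPM in Ly6G+ Mdivi-1 and 125 and 127 TPM in Ly6G+ vehicle, and at 18.6 TPM in HSCP Mdivi-1 and 14.4 TPM in HSCP vehicle. The gene ENSMUSG00000089672, for which no symbol was matched, had a difference of 0.196, and the chemokine receptor gene Ccr1 one of 0.203. They were followed by Arg2 (0.212), Klra17 (0.248), Trim30b (0.256), Cd300ld (0.276), the chemokine gene Ccl6 (0.316) and Pla2g7 (0.347). The members themselves differed from their own sum by between 0.160 (Gm5483) and 0.654 (BC117090). None of the 9 with a symbol lies on chromosome 16. The libraries share 2 treatments and 2 populations, so this is a description over 6 points.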

How the data were processed

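RNA from 6 sorted marrow libraries had been sequenced by the submitters. Per the submitters' processing notes, bcl2fastq, CASAVA 1.8 and kallisto were used with the mm10 build; no version of kallisto, transcript annotation, strand setting or gene-level summary is stated there. The authors deposited 1 table of 28987 genes whose values were read as TPM, from their sums and fractions, although its name speaks of counts; 0 value columns belonged to no sample. TPM keeps no depth, so no counting interval is given. Identifiers were matched to GENCODE M21, which gave 27458 a symbol, and 31-mers were counted over its transcripts. In every pair of libraries, 0 genes of at least 1 TPM held identical values.

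The deposited TPM were turned into log2(TPM + 1) and tested with limma 3.58.1 in R 4.3.3 (trended, robust prior), keeping a gene if 2 or more of the libraries in the fit reached 1 TPM, with Benjamini-Hochberg adjustment over all genes tested and a threshold of 0.05. Fold changes on this scale are understated for low genes; folds of sums are ratios of mean TPM. The Ly6G+ fit used 4 libraries (2 residual degrees of freedom), the population fit 6 with treatment as covariate (3), and the interaction fit 6 with 4 group means. The scripts were tested on simulated data. Alignments were made with MAFFT, and other steps in Python 3.11.15 with pandas 2.3.3.

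The members and gene lists were chosen with earlier results of these data known, so list counts are descriptions. The naming rule took all members, up to 5 genes of the cystatin, cysteine protease and inhibitor lists (called ones first, then the most expressed), up to 4 of the late neutrophil and marker lists, the 5 nearest protein-coding neighbours on either side, the 10 genes most like the sum, and Dnm1l, Kit and Ly6g; other names are marked as chosen after their values were seen. Alternatives covered scaling, pseudocount, filter, prior, replicate block, the libraries in the fit and leaving out each library. Protein sequences were not used here.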

Additional observations from a re-analysis of the deposited data

How the results depend on the processing

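In Ly6G+ cells, 76 of 84 alternative values of the members' Mdivi-1 changes kept their direction and their side of the threshold, and 8 kept the direction only. Without each Ly6G+ library in turn, the log2 changes ranged from 1.02 to 1.12 in Stfa1, 0.96 to 1.05 in Stfa3, 1.03 to 1.10 in BC100530, 0.86 to 1.10 in Gm5483 and 0.96 to 1.60 in BC117090; those of Stfa2l1 (1.28 to 1.41) and Stfa2 (1.27 to 1.37) stayed called. A fit with 1 library in an arm assumes that this library varies like the others. BC117090 was at 1.28 with no filter and not called (adjusted p = 0.104), where more genes were tested. Counts of genes called with Mdivi-1 were 290 higher and 499 lower, 453 and 336 with median-of-ratios scaling (57.4% higher, against 36.8%), 362 and 389 with upper-quartile scaling (48.2% higher), and 104 and 114 with no filter. Without each library they ranged from 17 to 116 higher and from 5 to 163 lower. The 17 and 5 were without Ly6G+ vehicle replicate 2, with 35 and 7 without vehicle replicate 1, 116 and 163 without Mdivi-1 replicate 1, and 104 and 108 without Mdivi-1 replicate 2. The cause of these shifts was not tested.

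With the replicate block the counts were 152 higher and 173 lower, and all 7 members stayed called. The labels do not say whether the replicate numbers pair the libraries. Same-numbered Ly6G+ libraries had deviations correlated at r = -0.031 across 11775 genes, which shows no common shift but cannot settle pairing. For the interaction, the block gave 1 gene higher and 1 lower, a pseudocount of 0.1 gave 1 higher, a pseudocount of 5 gave 5 higher and 1 lower, and leaving out a library gave 0 to 2 lower (2 without Ly6G+ Mdivi-1 replicate 1); 0 members were called in any of 77 values, with adjusted p-values of 0.084 to 0.55.

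Between populations, all 105 alternative values of the members stayed called and higher in Ly6G+, while genes called higher numbered 4157 with median-of-ratios scaling (49.8% of calls, against 30.6%; 46.5% with upper-quartile scaling). The summed TPM had a log2 ratio of 1.16 with Mdivi-1 in Ly6G+, 1.25 with median-of-ratios scaling, 1.08 without Stfa2l1 and 1.09 to 1.24 without each library; in HSCP it was 0.29, and 0.26 to 0.30 in the alternatives. Between populations it was 3.86, with 4.26 and 4.19 under the other scalings, 3.69 without Stfa2l1 and 3.66 to 4.05 without each Ly6G+ library. In HSCP, BC117090 was at -1.04, -1.49 with a pseudocount of 0.1 and -0.45 with one of 5. Low-level values are limited by unknown depth, HSCP values by 1 library per arm, and values of single members other than Stfa3 by shared reads.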
